A study of Mus musculus with 4 samples.

Results

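Hnf4a and Hnf4g encode the hepatocyte nuclear factor 4 receptors alpha and gamma, and their transcripts were measured in whole embryonic mouse kidneys. The probe sets were selected by gene name, not by measured values: they are the ones that the platform annotation gives to Hnf4a or Hnf4g alone, 4 for Hnf4a and 3 for Hnf4g, 7 of 45101 probe sets on the array and 2 of 18194 genes. The Wnt4 mutant group comprised 2 arrays, each of a pool of 12 kidneys of Wnt4 null mutants (allele Wnt4tm1Amc, stated strain 129). The wild-type group comprised 2 arrays, each of a pool of 2 kidneys (stated strain CD-1). All pools were taken at stage E14.5 (Theiler stage 22), and the sex was given as unknown. Wnt4 is a secreted signal without which mesenchyme does not turn into renal vesicles, the earliest nephron epithelium, and the comparison was set up to find genes of the vesicle and of the structures that grow from it. Genotype, stated strain and pool size changed together and cannot be told apart. The strain of the mutants is itself uncertain, since the protocol text given for all arrays speaks of CD-1 matings. Each pool stands as a separate biological replicate in the labels, which name no litters, and p-values measure only the spread between these pools.

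HNF4A is a nuclear receptor that binds direct repeats in DNA as a homodimer and is best known as a master regulator of hepatocyte genes. In the kidney it is restricted to the proximal tubule, the nephron segment that reabsorbs most filtered glucose, amino acids and phosphate, and in mice its loss from nephron progenitors prevents proximal tubules from maturing. HNF4G is its close paralogue, recognises much the same DNA and is known from intestine and kidney.

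Hnf4a lies on chromosome 2 (GRCm38.p6, positions 163506811 to 163572907) and Hnf4g on chromosome 3 (3508030 to 3659800). Hnf4a is transcribed from an upstream promoter, P2, and a downstream promoter, P1, and the RefSeq promoter table of build GRCm38.p6 holds 2 windows for it, each running from 250 bases before to 50 bases after a transcript start. They are shown because every Hnf4a result below sums over whatever starts the probe sets can read. The windows lie 40298 bases apart on the plus strand, at chr2:163506607-163506906 and chr2:163546905-163547204, and their GC content was 54% and 57.3%.
Hnf4a upstream window: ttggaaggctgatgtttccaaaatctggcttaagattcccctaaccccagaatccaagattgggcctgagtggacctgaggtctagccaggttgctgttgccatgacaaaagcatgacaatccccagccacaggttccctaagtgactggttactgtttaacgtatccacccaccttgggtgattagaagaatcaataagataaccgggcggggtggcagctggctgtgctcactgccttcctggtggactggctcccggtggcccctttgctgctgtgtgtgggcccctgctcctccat
Hnf4a downstream window: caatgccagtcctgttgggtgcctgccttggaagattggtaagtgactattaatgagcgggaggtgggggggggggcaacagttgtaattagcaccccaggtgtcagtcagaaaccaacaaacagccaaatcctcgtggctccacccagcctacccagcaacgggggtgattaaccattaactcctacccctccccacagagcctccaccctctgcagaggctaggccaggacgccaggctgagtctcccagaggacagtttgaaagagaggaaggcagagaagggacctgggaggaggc
The letters of the HNF4-selective motif CAAAGTCCA, searched on both strands and marked in capitals wherever it is printed, are in neither window. The deposited values give no position for a probe set within the transcript, so use of the starts was not analysed here.

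The arrays were on a common scale, with a mean signal of 500.0 on each after the lowest and highest 2% were trimmed and a median between 137.5 and 159.3. Wnt4, the disrupted gene, had signals of 406 and 272 in mutant kidneys, against 1885 and 1769.9 in wild-type kidneys, at its brighter probe set (limma log2 difference -2.40 ± 0.18, SE; adjusted p = 0.000196). Whether these probes read the sequence that the allele removes was not analysed here. Of the 27022 probe sets tested, 2920 passed an adjusted p of 0.05 (10.8%), with 5.39% lower in the mutant and 5.41% higher.

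Hnf4a was far lower in mutant kidneys. Its brightest probe set, 1427001_s_at, had signals of 21.9 and 135 in mutant kidneys, against 1591 and 1629.9 in wild-type kidneys. Probe set 1427000_at had 4.48 and 24.7 in mutant kidneys, against 754 and 929 in wild-type kidneys. Both are far apart between the groups: the lowest wild-type signal was 11.8 times the highest mutant signal at the first and 30.5 times at the other. Probe set 1421983_s_at had 90.3 and 86.0 in mutant kidneys, against 812 and 933 in wild-type kidneys. The dimmest, 1450447_at, had 47.6 and 72.0 in mutant kidneys, against 291 and 289 in wild-type kidneys. At each of the 4 both mutant signals lay below both wild-type signals, as was the case for 28% of tested probe sets. The filter on low values kept probe sets by their mean log2(signal + 16) over the 4 arrays, and the lowest mean kept is equal to a signal of 94.2 on that scale. The mutant arrays alone lay under it at each of the 4, with mean signals between 14.6 and 88.1, so each Hnf4a probe set entered the test through its wild-type signal and could only enter it by differing.

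On the log2(signal + 16) scale the difference, mutant minus wild-type, was -4.88 ± 0.36 (SE) at 1427000_at, a 29.5-fold lower level (95% interval of the log2 difference -5.72 to -4.05; limma adjusted p = 0.00019). It was -4.43 ± 0.52 at 1427001_s_at, 21.5-fold lower (interval -5.62 to -3.23; limma adjusted p = 0.00163). It was -3.09 ± 0.19 at 1421983_s_at, 8.51-fold lower (interval -3.52 to -2.66; limma adjusted p = 7.39e-05). At 1450447_at it was -2.03 ± 0.29, 4.09-fold lower (interval -2.69 to -1.37; limma adjusted p = 0.00382). All 4 Hnf4a probe sets passed in the downward direction, a count that the filter favours for the reason given above, so that the 5.39% of tested probe sets that passed lower is no fair measure for it. In the limma fit without a filter all 4 passed as well (adjusted p between 0.000737 and 0.0197), where 2.19% of all probe sets that are no controls were lower. By size of the difference they ranked 7, 15, 41 and 133 from the bottom of 27022, and the gene, read at its brightest probe set, ranked 7 of 13432.

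The probe sets agreed on direction but not on size, which ran from -4.88 to -2.03. The annotation names the same source sequence for 1427000_at and 1427001_s_at, and another shared by 1421983_s_at and 1450447_at. They are therefore not independent readings of the gene. With mutant signals this low, the added 16 sets part of the size: at 1427000_at the log2 difference was -6.14 with 1 added and -3.53 with 64 added. In whole-kidney RNA, fewer cells that express Hnf4a and less Hnf4a RNA per cell cannot be told apart.

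The mutant pools also differed from each other. Replicate 2 was above replicate 1 at 3 of the 4 Hnf4a probe sets, by 6.16 times at 1427001_s_at and 5.52 times at 1427000_at, while at 1421983_s_at the mutant signals were within 1.05 times of each other. Wild-type signals of the same 4 probe sets were within 1.23 times of each other. As ranks among all 45037 probe sets that are no controls, 1427001_s_at stood at percentiles 16.4 and 45.9 in mutant kidneys, against 89.9 and 90.2 in wild-type kidneys. Its call was lost in a limma fit without the intensity trend (adjusted p = 0.051), whereas the other 3 kept theirs. Without mutant replicate 1 its log2 difference was -3.43, and without mutant replicate 2 it was -5.42, both past the threshold.

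**Figure D1:**
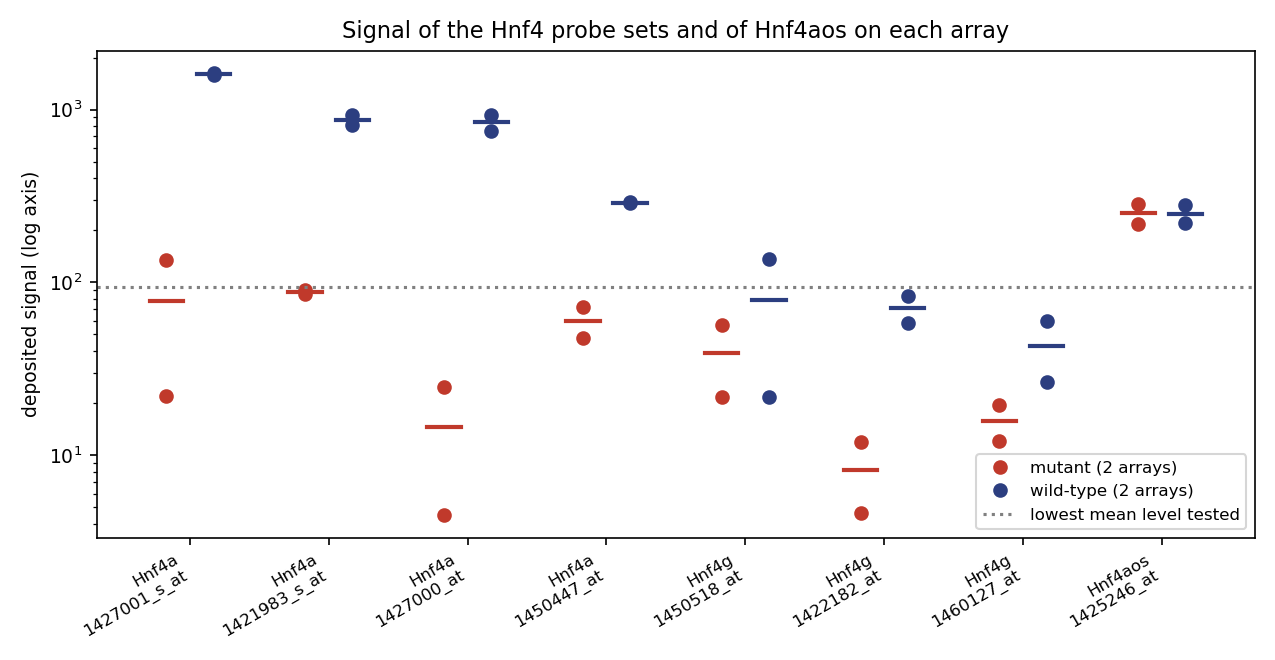
Deposited signal of each Hnf4 probe set and of Hnf4aos on every array, on a log axis, with mutant arrays on the left of each pair, wild-type arrays on the right, short bars for the means and a dotted line at the signal (94.2) equal to the lowest mean of log2(signal + 16) that was tested. The 4 Hnf4a probe sets are separated between the groups, the 3 Hnf4g probe sets lie near or below the line in both, and Hnf4aos is at the same level in both. Heights of different probe sets are not comparable with each other.

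The Hnf4a locus also carries Hnf4aos, a long non-coding RNA gene annotated at positions 163493804 to 163541721 of chromosome 2, which overlaps the upstream part of Hnf4a. It is not an Hnf4 gene and was included after its values were seen. Its probe set had 219 and 285 in mutant kidneys, against 279 and 220 in wild-type kidneys, so the groups overlapped. The log2 difference was 0.01 ± 0.23 (SE), with a 95% interval of -0.51 to 0.53 (limma adjusted p = 0.989). That interval does not reach the smallest of the Hnf4a differences, -2.03, although the 2 differences were not tested against each other.

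Hnf4g was dim in both groups. None of its 3 probe sets passed the filter on low values, so the main fit holds no test for it, and only 4 of the 7 Hnf4 probe sets were tested. Probe set 1422182_at had signals of 4.62 and 11.8 in mutant kidneys, against 58.5 and 83.5 in wild-type kidneys, with both mutant pools below both wild-type pools. Probe set 1460127_at had 12.1 and 19.5 in mutant kidneys, against 26.5 and 59.6 in wild-type kidneys, and the groups again did not overlap. Probe set 1450518_at had 56.7 and 21.6 in mutant kidneys, against 21.7 and 137 in wild-type kidneys, and here they did. Mutant signals below wild-type signals without overlap were thus found at 2 of 3 Hnf4g probe sets, and at 24% of all probe sets that are no controls.

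In the limma fit without a filter, where 1991 of 45037 probe sets passed (4.42%; 2.19% lower), 1422182_at was 3.59-fold lower in mutant kidneys, with a log2 difference of -1.85 ± 0.36 (SE, 95% interval -2.70 to -0.99, adjusted p = 0.0412). Its size depended on the pseudocount, with -3.06 for 1 and -0.90 for 64. In the same limma fit the log2 difference was -0.85 (interval -1.78 to 0.09, adjusted p = 0.325) at 1460127_at and -0.54 (interval -2.22 to 1.15, adjusted p = 0.777) at 1450518_at. The intervals of both include 0 as well as falls of 2-fold and more. Leaving out wild-type replicate 2, the only array with a signal above 100 at 1450518_at, turned its difference to 0.47. Hnf4g was measured close to the bottom of the scale, where 1422182_at stood at percentiles 2.17 and 7.27 in mutant kidneys, against 29.1 and 36.1 in wild-type kidneys.

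The 2 paralogues were set side by side within each array, as log2(signal + 16) of the brightest Hnf4a probe set minus that of the brightest Hnf4g probe set, 1450518_at. This value was -0.94 and 2.00 in mutant kidneys, against 5.41 and 3.42 in wild-type kidneys. The mutant mean minus the wild-type mean was -3.89, the amount by which the log2 difference of Hnf4a lay below that of Hnf4g. The exact two-sided permutation p was 0.33, the smallest that 2 arrays against 2 can give, so no difference between the paralogues was shown, and Hnf4g enters this value with signals below the filter. The value ran from -5.36 without mutant replicate 2 to -2.42 without mutant replicate 1, leave-outs that were added after the data were seen. With 1422182_at for Hnf4g, a choice added after the data were seen, the values were 0.88 and 2.44 in mutant kidneys, against 4.43 and 4.05 in wild-type kidneys, with a difference of -2.58 and the same p.

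Among the other 13431 genes tested, the 5 with the pattern closest to that of Hnf4a were Spink1, Sult1d1, 0610005C13Rik, Slc12a1 and Slc2a2. Closeness was the Euclidean distance over the 4 arrays between log2(signal + 16) values centred on each gene's own mean, and it was 0.987, 1.15, 1.18, 1.23 and 1.32 in that order. Spink1, which encodes a trypsin inhibitor, had 14.7 and 40.7 in mutant kidneys, against 520 and 693 in wild-type kidneys. Sult1d1, a sulfotransferase gene, had 18.6 and 37.8 in mutant kidneys, against 1444 and 1407 in wild-type kidneys. Slc12a1, the cotransporter gene of the thick ascending limb, had 81.2 and 119.9 in mutant kidneys, against 1446 and 1943 in wild-type kidneys. Each of these 3 was higher on mutant replicate 2 than on mutant replicate 1, as the choice by distance to Hnf4a over the same arrays favours. Slc2a2 and 0610005C13Rik, a gene known by its clone name, are in the plot of centred values. The likeness rests on 4 arrays and mostly on the contrast between the groups, and is a description.

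**Figure D2:**
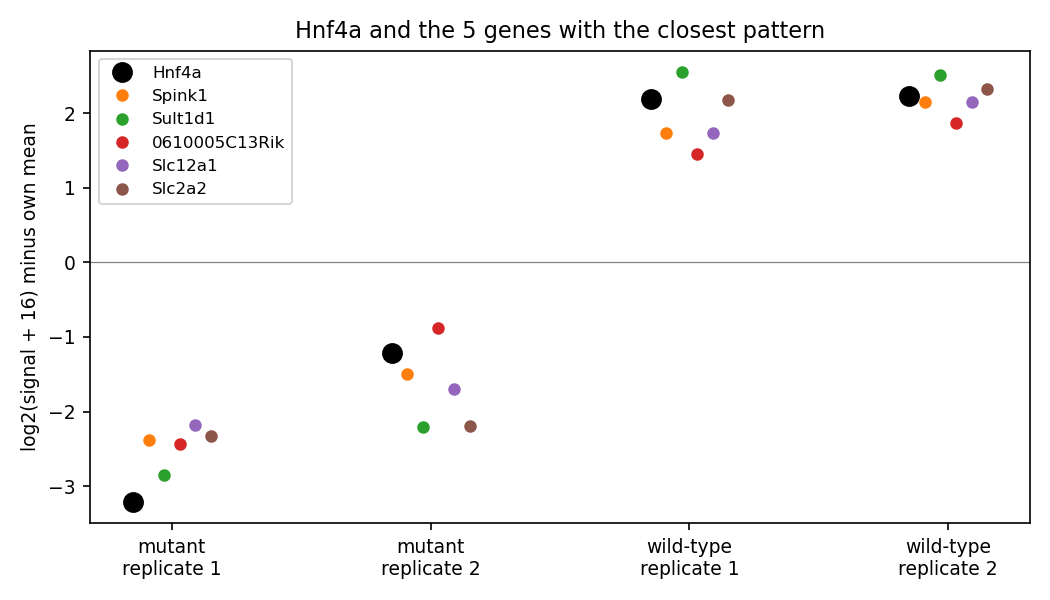
Log2(signal + 16) minus each gene's own mean over the 4 arrays, for Hnf4a (large black points, probe set 1427001_s_at) and the 5 genes closest to it, with mutant arrays on the left and wild-type arrays on the right. All 6 genes lie below their mean on both mutant arrays and above it on both wild-type arrays, with Hnf4a lowest on mutant replicate 1.

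Within the nuclear receptor family, to which both HNF4 proteins belong, a fall as deep as that of Hnf4a was found for no other tested gene. Of 49 receptor genes listed, 44 could be matched and 30 were tested. The 14 below the filter were not tested, among them Vdr at a log2 difference of -1.50 and Rxrg at 0.88. Hnf4a and Esrrg were lower, Nr2f1, Thra and Nr2f2 were higher, and 25 did not pass. Over all 13432 genes tested, 5.82% were lower and 6.7% higher, so the 6.67% of receptors that were lower is near that share. The median log2 difference of the 30 was -0.06, against 0.00 over all genes tested. Esrrg, an orphan receptor known for control of oxidative metabolism genes, had 268 and 225 in mutant kidneys, against 669 and 676 in wild-type kidneys (2.63-fold lower, limma adjusted p = 0.00154), though its other tested probe set did not pass.

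Nr2f1 and Nr2f2 encode COUP transcription factors, orphan receptors that can bind the same direct repeats as HNF4A. Nr2f1 had 4694 and 4116 in mutant kidneys, against 1726 and 1904 in wild-type kidneys (2.41-fold higher, limma adjusted p = 0.000256). Nr2f2, named after its value was seen, had 5304 and 4296 in mutant kidneys, against 3608 and 3576 in wild-type kidneys (1.33-fold higher, limma adjusted p = 0.0492). Its call was lost without mutant replicate 1 and in 4 further settings (limma adjusted p = 0.0507 to 0.224). Of the 4 further tested probe sets of Nr2f2, 2 passed higher. Thra, a thyroid hormone receptor gene, was 1.65-fold higher (limma adjusted p = 0.00308), a call lost without the intensity trend (0.0715). For Thra, 1 of 2 further tested probe sets passed higher.

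**Figure D3:**
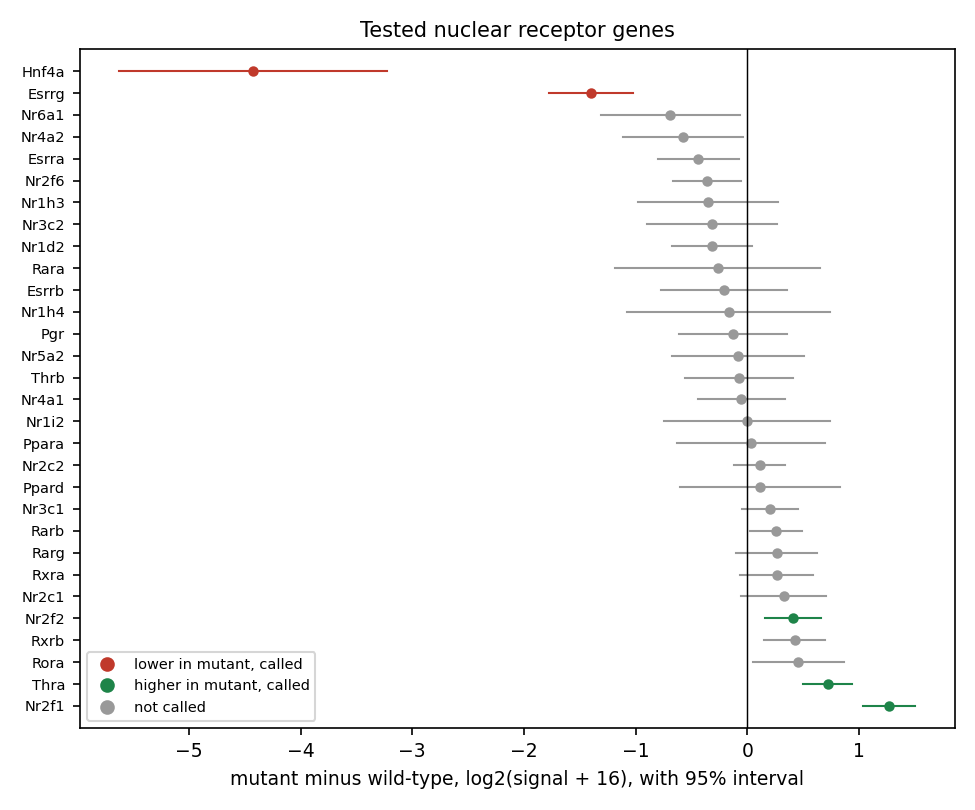
Log2 difference, mutant minus wild-type, of the 30 tested nuclear receptor genes with 95% intervals from the limma fit, red for genes that passed lower, green for genes that passed higher and grey for the rest. Hnf4a at -4.43 stands far left of Esrrg at -1.40, and the other points lie between -0.69 and 1.27.

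Of the coregulators through which nuclear receptors act, 12 of 15 listed genes were tested and 0 passed in either direction in the limma fit, with 1 lower and 1 higher at an unadjusted p of 0.05. Among all genes tested, 5.82% passed lower and 6.7% higher, so 0 of 12 is near these shares. Ppargc1a, the gene of a coactivator that works with HNF4A in liver, had 238 and 283 in mutant kidneys, against 410 and 380 in wild-type kidneys, without overlap (log2 difference -0.58, interval -0.99 to -0.16, limma adjusted p = 0.0849). These counts read each gene at its brightest probe set: 1 of 4 further tested probe sets of Ppargc1a passed lower, and 1 of 3 of the Mediator gene Med1 passed higher. Ppargc1b did not pass with all arrays (limma adjusted p = 0.31) but did without mutant replicate 1 (0.042). The log2 difference was 0.30 for the coactivator gene Ncoa2 (limma adjusted p = 0.093) and 0.21 for the acetyltransferase gene Crebbp (limma adjusted p = 0.235).

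Of the transcription factors enriched in liver, 10 of 17 listed genes were tested, with Hnf4a lower, Foxa1 higher and 8 not past the threshold. Among all genes tested, 5.82% passed lower and 6.7% higher, so 1 call each way is near these shares. Foxa1, a pioneer factor once named hepatocyte nuclear factor 3 alpha, had 757 and 665 in mutant kidneys, against 300.4 and 284 in wild-type kidneys (2.35-fold higher, limma adjusted p = 0.00206). The CCAAT-binding factor gene Cebpb had a log2 difference of -0.39 (limma adjusted p = 0.14) and the homeobox gene Hhex one of -0.38 (limma adjusted p = 0.183). Onecut1, Onecut2, Foxa2 and Prox1 were below the filter, like Hnf4g.

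Genes of the proximal tubule, where HNF4A acts in the kidney, were lower in large part. The membrane genes listed (carriers, endocytic receptors and brush-border proteins) numbered 49, of which 40 were tested, and 23 of these were lower and 2 higher, that is 57.5% lower against 5.82% of all genes tested. Their median log2 difference was -1.13. Of 39 listed enzymes, 23 were tested, and 12 were lower (52.2%) and 0 higher in the limma fit, also 0 higher at an unadjusted p of 0.05, with a median of -1.37. Several members, Hao2, Sult1d1, Slc2a2, Slc39a5, Slc27a2 and Slc47a1 among them, were listed when their low values were already known, so these counts are no independent evidence of direction. Many lower membrane genes and most lower enzymes lay under the filter on the mutant arrays alone, such as Slc2a2 and Hao2 (mean mutant signals 10.69 and 4.78). The membrane genes were Slc34a1, Slc2a2, Slc39a5, Lrp2, Slc27a2, Cubn, Slc47a1, Slc7a9, Slc22a6 and Slc3a1. The enzymes were Keg1, Sult1d1, Hao2, Fut9, Glyat, Dao, Acaa1b, Gsta2 and Kynu. Like Hnf4a, such genes could only enter the test by differing, so 5.82% is no fair measure for either share. In the limma fit without a filter, which tests every matched gene, 23 of 47 membrane genes and 14 of 36 enzymes were lower. In that fit 2.19% of all probe sets that are no controls were lower.

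Pdzk1, a scaffold of apical carriers, had 191 and 186 in mutant kidneys, against 2042 and 2178 in wild-type kidneys (10.4-fold lower, limma adjusted p = 1.64e-05). Slc2a2, the glucose carrier GLUT2 and a target of HNF4A in other organs, had 9.44 and 11.9 in mutant kidneys, against 562 and 624 in wild-type kidneys (22.8-fold lower, limma adjusted p = 9.75e-05). Slc34a1, a sodium-phosphate cotransporter gene, was 20.9-fold lower and the brush-border peptidase gene Dpp4 6.47-fold lower. Both mutant pools lay far below both wild-type pools for each of these genes. They were named for the smallest p of their list, a choice that favours such separation. Of all tested probe sets, 28% were lower in the mutant without overlap.

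Among the enzymes, Hao2, a peroxisomal hydroxyacid oxidase gene, had 6.07 and 3.49 in mutant kidneys, against 614 and 772 in wild-type kidneys (34.0-fold lower, limma adjusted p = 7.39e-05). Sult1d1, described above, was 33.4-fold lower, Keg1 15.9-fold and the membrane carbonic anhydrase gene Car4 8.56-fold. The 2 membrane genes that were higher, named after their values were seen, were Mme, the gene of the peptidase neprilysin (2.08-fold), and Slc7a7, an amino acid carrier gene (1.66-fold). The other tested probe set of each did not pass, and the call of Slc7a7 was lost without mutant replicate 1 (limma adjusted p = 0.0961) also when mutant replicate 2 was left out (0.0991), and without the intensity trend (0.0586). Of 20 further members of both lists below the filter, 14 had both mutant signals under both wild-type signals, as 24% of all probe sets that are no controls did.

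**Figure D4:**
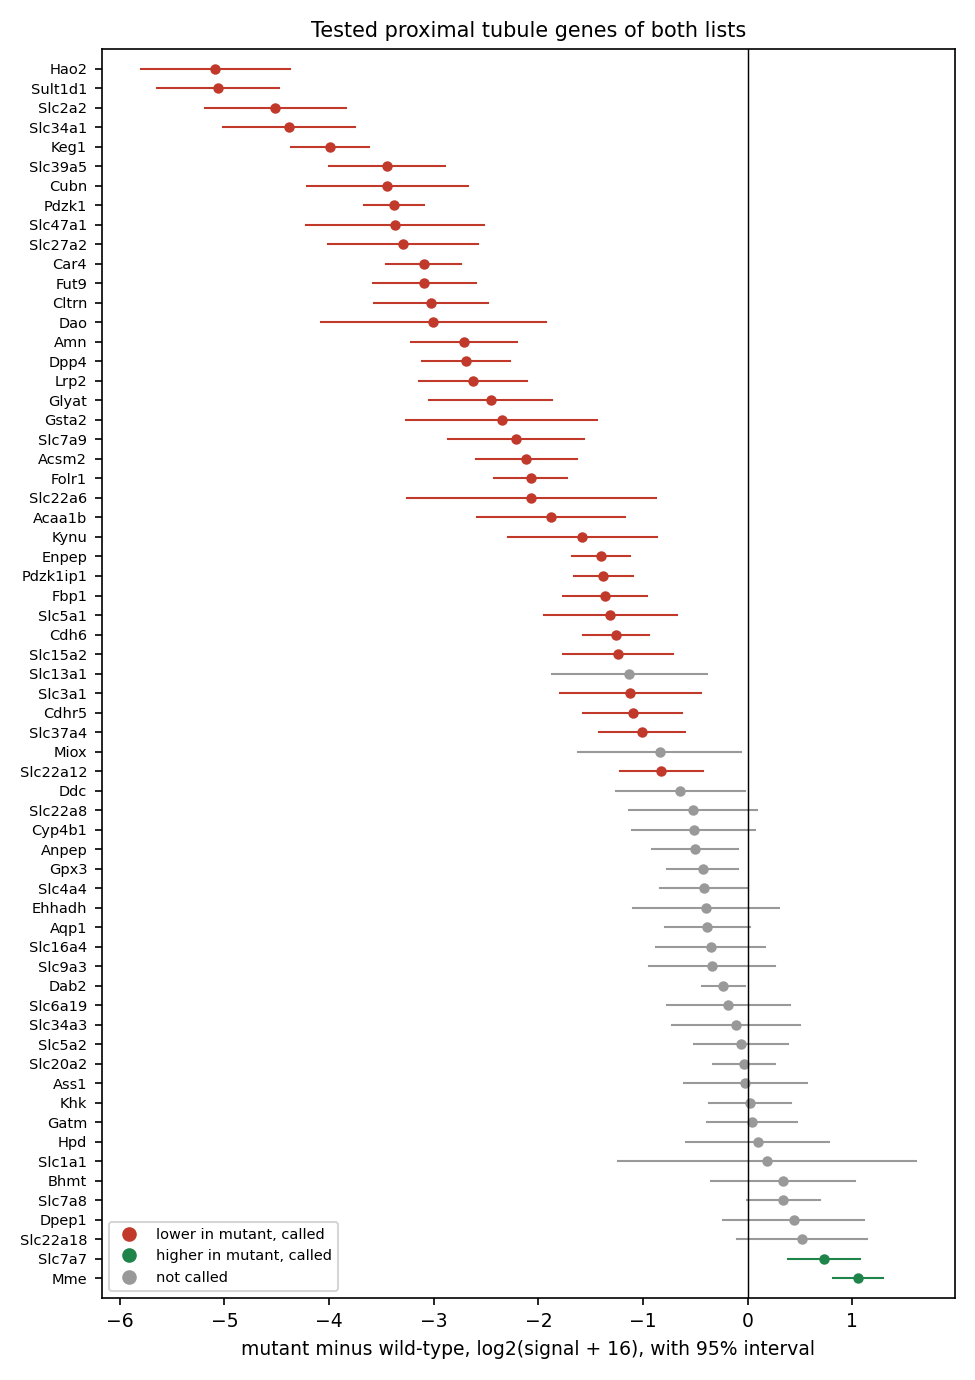
Log2 difference, mutant minus wild-type, with 95% intervals from the limma fit, for the 63 tested genes of both proximal tubule lists, red for genes that passed lower, green for genes that passed higher and grey for the rest. Differences run from -5.09 (Hao2) to 1.05 (Mme), and the grey genes lie between -1.13 and 0.52.

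The HNF4-selective motif CAAAGTCCA was searched, on both strands, in the RefSeq promoter windows of these genes. It was present for 2 of the 31 proximal tubule genes that were lower and had a window (6.45%), for 0 of 25 tested genes that were not lower, and for 150 of 27025 genes with a window in all (0.555%). Split by list, it was present for 2 of 21 lower membrane genes and 0 of 10 lower enzymes with a window. The 6.45% rests on 2 genes and was not tested. The 2 genes were Pdzk1 and Slc3a1, which encodes a subunit of a cystine carrier and was 2.17-fold lower (limma adjusted p = 0.0463). Slc3a1 passed close to the threshold and lay under the filter on the mutant arrays alone, with a mean mutant signal of 70.3. Its call in the other settings is not given here. The sequences around the 2 matches are shown because they are the only stretches of these windows that hold the letters. They lie at chr3:96830053-96830112 and chr17:85028282-85028341 of GRCm38.p6, plus strand.
Pdzk1: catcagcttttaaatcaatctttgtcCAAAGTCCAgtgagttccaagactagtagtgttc
Slc3a1: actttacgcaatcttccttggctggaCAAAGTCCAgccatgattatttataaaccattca
In Pdzk1 the motif starts 14 bases after a transcript start and in Slc3a1 it starts 39 bases before one. A match is only a run of letters, and the absence of one from a window says nothing of binding elsewhere.

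HNF4A is also made in liver and gut, so markers of both were read beside it. Of 26 hepatocyte markers listed, 24 could be matched, 8 were tested and 16 lay below the filter. The albumin gene Alb was below it, with 55.9 and 166 in mutant kidneys, against 111 and 65.9 in wild-type kidneys, and so were Apoa1 and Ttr, with no signal of either above 100. Of the 16 below the filter, Serpina1b, F9 and Hpx were lower in mutant kidneys without overlap, and Ahsg and Apoc2 were higher without overlap. The groups overlapped for the rest of the 16. Of all probe sets that are no controls, 24% were lower without overlap. The summed signal of the 8 tested was 880 and 1580 in mutant kidneys, against 2248 and 2678 in wild-type kidneys. Of that sum, the alpha-fetoprotein gene Afp held 69.7 and 520 in mutant kidneys, against 1127 and 1562 in wild-type kidneys. Its share of the sum was thus larger in wild-type kidneys. Afp was the only marker called, where 5.82% of all genes tested were lower. It was 6.27-fold lower (limma adjusted p = 0.0438), and the call was lost in 5 of the other settings (0.0504 to 0.329). Its log2 difference of -2.65 became -1.33 without mutant replicate 1 and -3.97 without mutant replicate 2, and 1 of its 3 further tested probe sets passed. Log2 differences were -0.69 for Apom, -0.46 for F2 and -0.53 for Apoh (limma adjusted p = 0.142, 0.409 and 0.436). The part of Afp-expressing cells in the Hnf4a result was not tested.

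Of 12 intestinal markers only Olfm4, Cdx2 and Krt20 were tested, and 0 passed in the limma fit. Over all genes tested, 5.82% were lower and 6.7% higher. At an unadjusted p of 0.05, 1 of the markers was higher. That was Olfm4, at a log2 difference of 0.81 (limma adjusted p = 0.0655), which passed with arrays centred on their medians (0.0385). Their summed signal was 462 and 541 in mutant kidneys, against 452 and 343 in wild-type kidneys. Vil1, the brush-border gene villin of gut and proximal tubule, was below the filter with 4.42 and 5.78 in mutant kidneys, against 338 and 391 in wild-type kidneys.

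Kidney markers were present in both groups. All 15 that could be matched were tested, with Jag1, Lhx1, Pax8 and Cited1 lower, Foxd1 and Osr1 higher and 9 not past the threshold. Shares over all genes tested were 5.82% lower and 6.7% higher. The summed signal of the 15 was 24714 and 23889 in mutant kidneys, against 26907 and 25768 in wild-type kidneys. Lhx1 and Jag1, markers of the renal vesicle, moved with Hnf4a: Lhx1 had 193 and 169.8 in mutant kidneys, against 1236 and 1071 in wild-type kidneys, and was 5.92-fold lower, and Jag1 was 3.51-fold lower, though neither of its 2 further tested probe sets passed. Pax8, a gene of induced nephron cells, was 2.92-fold lower, while the stromal gene Foxd1 was 3.08-fold higher. Without the intensity trend the calls of Cited1 and Osr1 were lost (limma adjusted p = 0.0621 each), and that of Osr1 also without mutant replicate 2 (0.0625). Among the genes not past the threshold, Sall1 and Ret each had 1 further tested probe set that passed lower. The part that the missing nephron structures have in the fall of Hnf4a was not tested.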

How the data were processed

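RNA of whole kidneys was hybridised to 4 Affymetrix Mouse430_2 arrays, with 1 round of amplification per the labels' protocols. The authors deposited 1 linear signal intensity per probe set. GCOS is the only tool in the submitters' processing notes; no version, algorithm or scaling target is given in the sources used here. Values were taken as log2(signal + 16) without further normalization. The 64 control probe sets and the lowest 40% by mean log2 value were left out, which left 27022. limma 3.58.1 in R 4.3.3 (lmFit, eBayes with intensity trend, two-sided) was fitted to the whole table, with Benjamini-Hochberg adjustment over all probe sets and a threshold of 0.05. The fit was tested on simulated data. There, changes were placed only on probe sets with a mean above the filter, with the same spread in both groups. Its outcome is not given here and cannot speak for genes near the floor in 1 group. The number of arrays limits the precision. Genes were named through the platform annotation (34958 probe sets with 1 gene, 932 with several, 9211 not listed). Looking the names up in RefSeq GRCm38.p6 changed no symbol. Each gene was read at the brightest of its tested probe sets. The Hnf4 genes and all lists were chosen with earlier results of these data known. Named genes are the Hnf4 probe sets, Wnt4, up to 4 genes of each list by smallest p, and the 5 genes closest to Hnf4a; others were named after their values were seen. Beyond the Hnf4 genes and the matched genes of the lists, hepatocyte nuclear factor genes were not analysed here. Replicate numbers are in the sample titles, but deviations from the group means correlated at -0.017 between same-numbered arrays, so no pairing was used. Alternatives were quantile normalization, median centring, pseudocounts of 1 and 64, no filter or the lowest 60% left out, eBayes without a trend or robust, leaving out _x_at and _s_at probe sets, the replicate block, gene means and leaving out each array.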

Additional observations from a re-analysis of the deposited data

How the results depend on the processing

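The 4 Hnf4a probe sets stayed lower in every alternative that tested them, and the call was lost once, at 1427001_s_at without the intensity trend (-4.43, adjusted p = 0.051). When 1 array was left out, their log2 differences ran from -3.19 to -2.99 at 1421983_s_at, -5.38 to -4.39 at 1427000_at, -5.42 to -3.43 at 1427001_s_at and -2.26 to -1.80 at 1450447_at, and all passed. With the replicate number as a block, all 4 also passed, at -4.88 for 1427000_at (adjusted p = 1.28e-05), and 2913 probe sets passed in all; the block changed no Hnf4 call. With the lowest 60% left out, 1427000_at and 1450447_at were not tested. The mean over Hnf4a probe sets gave -3.61 ± 0.28 (SE, limma adjusted p = 0.000265).

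For Hnf4g, 1422182_at was at -1.85 and past the threshold without a filter (adjusted p = 0.0412), and at -3.06 and -0.90 with pseudocounts of 1 and 64. 1460127_at was at -1.32 with a pseudocount of 1. When 1 array was left out, 1450518_at ran from -1.55 to 0.47. The difference in change between Hnf4a and Hnf4g ran from -4.22 to -3.31 over other scalings and pseudocounts, was -2.58 with the other Hnf4g probe set, and lay between -5.36 and -2.42 with single arrays omitted; the last 2 choices were made after seeing the data.

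Without the intensity trend 858 probe sets passed, 433 lower and 425 higher. Leaving out 1 array gave 1479 to 3927 in all, 815 to 1877 lower and 664 to 2050 higher; without a mutant array the spread comes from the wild-type pools alone. With the lowest 60% left out, 14 proximal tubule membrane genes and 5 enzymes were lower. Slc2a2, Sult1d1 and Hao2 were among the genes not tested in that setting. The number tested is not given here, so these counts cannot be read as shares. The uncalled Cdx2 ran from -0.40 to 0.10 and Krt20 from -0.07 to 0.34 when 1 array was left out; Cdx2 changed sign, to 0.07 and 0.10, without mutant or wild-type replicate 1, and Krt20, to -0.06 and -0.07, without mutant or wild-type replicate 2. Low signal over background limits Hnf4g in both groups and Hnf4a in mutant kidneys. The causes of these shifts were not tested.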
